A study of Mus musculus with 6 samples.

Results

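The genes described here are 10 antioxidant enzyme genes of the mouse: the superoxide dismutases Sod1 and Sod2, catalase (Cat), the glutathione peroxidases Gpx1 and Gpx4, the peroxiredoxins Prdx1, Prdx2, Prdx4 and Prdx5, and thioredoxin 1 (Txn1). They were taken by symbol from 49377 gene names in the deposited tables, and all 10 were found. RNA-seq was carried out on 6 libraries of blastocyst-derived embryonic stem cells of strain C57BL/6J with the genotype Mll1fl/fl; Cre-ER TM, and the groups were VD3 plus MM-401, VD3, and untreated. VD3 is 1α,25-dihydroxyvitamin D3, the hormonal form of vitamin D, given at 1 µM, and MM-401, given at 100 µM, is an inhibitor of the histone methyltransferase MLL1 (Kmt2a); each treatment lasted 5 days. The floxed Mll1 allele and the inducible Cre were present in all 3 groups, no group had MM-401 alone, and all cells grew with LIF on feeder fibroblasts from mouse embryos, in 15% fetal calf serum or 20% serum replacement for maintenance and in serum during treatment.

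The series describes the 2 libraries of each group as biological duplicates, but the tables hold 1 combined column per group, called a pool here. No difference therefore has a replicate check, and no p-value can be given. The columns were matched to the groups by name; those of the untreated and of the VD3 plus MM-401 pool carry a further element that the labels do not explain. The estimated fragment counts summed to 73499639 for VD3 plus MM-401, 73636342 for VD3 and 62284598 for untreated cells. All 9 stem cell markers with a value of their own exceeded 10 FPKM (fragments per kilobase of transcript, scaled to the reads mapped) in every pool, and their summed level was 3791 FPKM in VD3 plus MM-401 cells, 3747 in VD3 cells and 2400 in untreated cells. Pou5f1 was the largest part of each sum, at 1832, 2053 and 1114 FPKM in the same order. Klf4 went the other way, at 63.0, 62.6 and 76.2 FPKM. Feeder fibroblast markers, 13 of 14 with a value of their own, summed to 235, 331 and 260 FPKM in the VD3 plus MM-401, VD3 and untreated pools; Lum was at 0 in all pools and Postn at 0 in both treated ones, and Fn1 and Tagln made up most of each sum. The single fibroblast markers did not move together. Col3a1 had 0.553 FPKM in VD3 plus MM-401 cells, against 3.93 in VD3 and 4.19 in untreated cells. Thy1 had 9.41 FPKM in VD3 plus MM-401 cells and 13.8 in VD3 cells, against 7.46 in untreated cells. The part of feeder RNA in the differences below was not tested. In bulk RNA, fewer cells of a type and less RNA per cell cannot be told apart.

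Superoxide dismutases turn superoxide, a by-product of respiration, into hydrogen peroxide, and catalase, glutathione peroxidases and peroxiredoxins then reduce the peroxide to water. Glutathione peroxidases draw electrons from glutathione, while peroxiredoxins oxidise a cysteine that thioredoxin restores, at the cost of NADPH. Many of these genes are known targets of the transcription factor NRF2 (Nfe2l2), which binds antioxidant response elements in DNA. Pluripotent stem cells are known to rely strongly on glycolysis and to hold low levels of reactive oxygen species.

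Together the 10 genes were more abundant in the treated pools: their FPKM summed to 5412 in VD3 plus MM-401 cells and 4333 in VD3 cells, against 2913 in untreated cells. Their share of all estimated counts was 0.373% in VD3 plus MM-401 cells, 0.287% in VD3 cells and 0.236% in untreated cells. Levels differed about 25-fold between the highest gene, Gpx1, and the lowest, Sod2, in the untreated pool. A gene was called different when log2((FPKM + 1)/(FPKM + 1)) between pools was at least 1 in size, so at least 2-fold, and the intervals that the authors' table gives for its FPKM did not overlap, among genes of at least 5 FPKM in the higher pool; all 10 genes passed this filter in each of the 3 comparisons. The rule was met by 1 of the 10 (Sod1, higher) in VD3 plus MM-401 against untreated cells, where 6.94% of all 10966 genes met it and 4.26% met it upwards. It was met by 1 of the 10 (again Sod1, higher) in VD3 against untreated cells, where 5.14% of 10911 genes met it and 0.926% met it upwards. None of the 10 met it in VD3 plus MM-401 against VD3 cells, where 1.37% of 10717 genes did. Both comparisons with untreated cells share that pool.

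**Figure D1:**
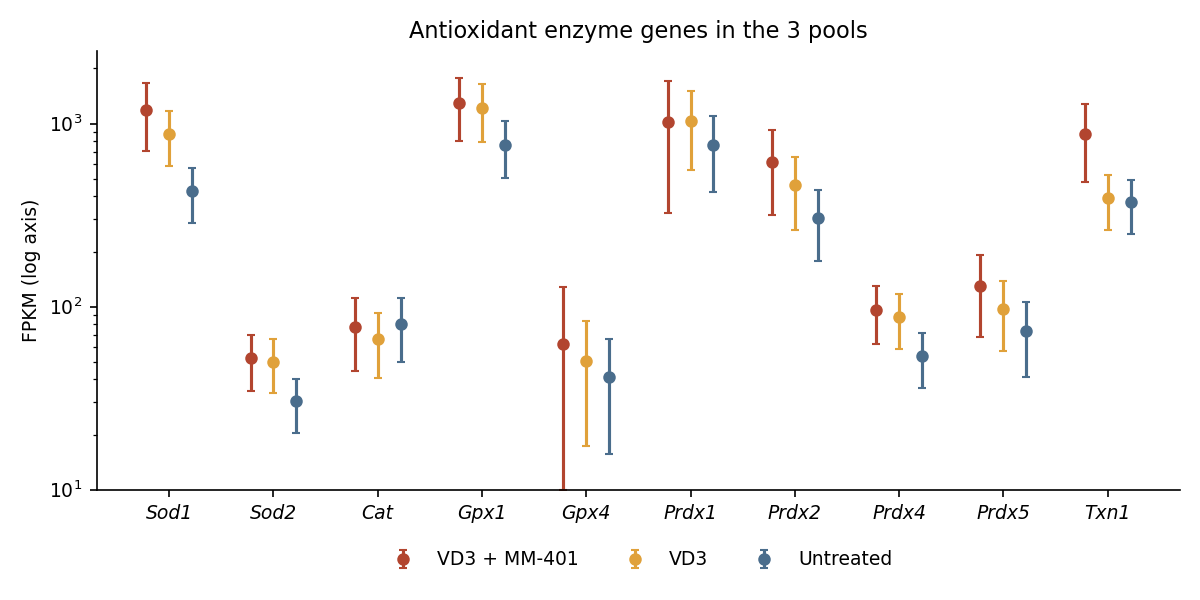
Expression level of the 10 antioxidant genes in FPKM, on a log axis, in VD3 plus MM-401, VD3 and untreated pools, with the interval of the authors' table as error bar. Sod1 in both treated pools lies above the untreated pool with no overlap, Txn1 is highest in VD3 plus MM-401 cells with an interval that overlaps those of both other pools, and the Gpx4 interval in VD3 plus MM-401 cells reaches 0 and is drawn to the bottom of the axis.

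Of the superoxide dismutases, Sod1 encodes the copper and zinc enzyme of the cytosol. Sod1 (chromosome 16, 90220754 to 90226329, GRCm38) was at 1189 FPKM (interval 711 to 1666) in VD3 plus MM-401 cells and 881 FPKM (584 to 1179) in VD3 cells, against 429 FPKM (287 to 571) in untreated cells. Sod1 rose 2.77-fold in VD3 plus MM-401 cells and 2.05-fold in VD3 cells relative to untreated cells, a log2 difference of 1.47 and 1.04. The interval of VD3 plus MM-401 cells began 140 FPKM above the end of that of untreated cells, and the interval of VD3 cells began 12.8 FPKM above it. Both treated pools were thus above the untreated pool without overlap, while their own intervals overlapped and differed by 0.43 on the log2 scale. The median of all genes also lay above 0 in these comparisons, by 0.27 for VD3 plus MM-401 and 0.36 for VD3 against untreated cells; relative to that median, Sod1 was higher by 1.20 and 0.67, and the second value no longer reached 2-fold, nor did the 0.79 for VD3 with estimated counts scaled to the pool total.

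Sod2 encodes the manganese enzyme of the mitochondrial matrix. Sod2 (chromosome 17, 13006846 to 13040063) had 52.2 FPKM (34.7 to 69.6) in VD3 plus MM-401 cells and 50.1 FPKM (33.5 to 66.6) in VD3 cells, against 30.4 FPKM (20.4 to 40.5) in untreated cells. The treated pools lay close together, and each interval overlapped that of untreated cells, at log2 differences of 0.76 and 0.70 from them. Per kilobase, Sod2 was the lowest of the 10 genes in every pool, although its long transcripts gave it 13243, 12707 and 7704 counts in the VD3 plus MM-401, VD3 and untreated pools.

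Catalase breaks down hydrogen peroxide in the peroxisome. Cat (chromosome 2, 103453849 to 103485160) had 77.7 FPKM (44.5 to 111) in VD3 plus MM-401 cells and 66.7 FPKM (40.8 to 92.6) in VD3 cells, against 80.4 FPKM (49.7 to 111) in untreated cells. It was the 1 gene of the 10 with its highest value in untreated cells, at log2 differences of -0.05 and -0.27 from them, and its intervals overlapped widely. By counts its treated pools were alike, at 8961 in VD3 plus MM-401 cells and 8952 in VD3 cells, against 10531 in untreated cells. With estimated counts scaled to the pool total, both differences from untreated cells were -0.47, so that FPKM and counts differ on the VD3 plus MM-401 pool. Relative to the median gene, Cat stood at -0.32 in VD3 plus MM-401 cells and -0.63 in VD3 cells.

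Gpx1 and Gpx4 are selenoproteins: their active site holds selenocysteine, encoded by a TGA codon that elsewhere ends translation. The coding stretches around that codon are shown because both genes depend on its read-through, with the TGA in capitals, from the GENCODE vM21 annotation of GRCm38 (Gpx1 codon 47, chr9:108339451-108339453; Gpx4 chr10:80054737-80054739, codon 73 of its 197-codon form; both on the plus strand).
Gpx1: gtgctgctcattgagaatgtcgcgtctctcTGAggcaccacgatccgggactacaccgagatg
Gpx4: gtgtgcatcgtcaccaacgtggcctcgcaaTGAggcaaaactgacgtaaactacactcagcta

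Gpx1, the abundant cytosolic and mitochondrial glutathione peroxidase, was the most abundant of the 10 genes in each pool. Gpx1 (chromosome 9, 108338903 to 108340343) had 1289 FPKM (799 to 1780.2) in VD3 plus MM-401 cells and 1218 FPKM (793 to 1643) in VD3 cells, against 766 FPKM (502 to 1030.3) in untreated cells. Its log2 differences from untreated cells were 0.75 and 0.67, with overlapping intervals, and its treated pools differed by 0.08. Gpx4 reduces lipid hydroperoxides in membranes and is known for holding off ferroptosis, a form of cell death by lipid peroxidation. Gpx4 (chromosome 10, 80047166 to 80056439) had 62.3 FPKM (0 to 128) in VD3 plus MM-401 cells and 50.5 FPKM (17.2 to 83.8) in VD3 cells, against 41.2 FPKM (15.7 to 66.7) in untreated cells. Its intervals were wide beside its differences of 0.59 and 0.29, and in the tables its locus is shared with the neighbouring gene Sbno2.

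The peroxiredoxins encoded by Prdx1 and Prdx2 are cytosolic, abundant and alike in sequence; Prdx4 acts in the endoplasmic reticulum, and Prdx5 in mitochondria, peroxisomes and cytosol. Prdx1 (chromosome 4, 116685544 to 116700822) had 1017 FPKM (325 to 1709) in VD3 plus MM-401 cells and 1027 FPKM (556 to 1499) in VD3 cells, against 761 FPKM (422 to 1101) in untreated cells. Its treated pools were nearly equal, and all 3 intervals overlapped, at log2 differences of 0.42 and 0.43 from untreated cells. Prdx2 (chromosome 8, 84969587 to 84974834) had 619 FPKM (318 to 919.6) in VD3 plus MM-401 cells and 462 FPKM (263 to 660.5) in VD3 cells, against 305 FPKM (177 to 433) in untreated cells. Prdx2 was highest with VD3 plus MM-401, then with VD3, then in untreated cells, and it passed 2-fold in VD3 plus MM-401 against untreated cells (log2 difference 1.02), but all 3 intervals overlapped. Its locus is shared with Rnaseh2a and with Junb, which is listed at 0.

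Prdx4 (chromosome X, 155323918 to 155340754) had 95.7 FPKM (62.3 to 129) in VD3 plus MM-401 cells and 87.8 FPKM (59.0 to 117) in VD3 cells, against 54.0 FPKM (36.0 to 72.0) in untreated cells. Prdx5 (chromosome 19, 6906697 to 6910106) had 129 FPKM (67.9 to 191) in VD3 plus MM-401 cells and 97.5 FPKM (57.1 to 138) in VD3 cells, against 73.8 FPKM (41.1 to 106) in untreated cells. Both genes were highest with VD3 plus MM-401, then with VD3, then in untreated cells, with overlapping intervals throughout. Their log2 differences from untreated cells were 0.81 and 0.80 in VD3 plus MM-401 cells, and 0.69 for Prdx4 and 0.40 for Prdx5 in VD3 cells. The Prdx5 locus is shared with Trmt112 and Esrra.

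Txn1 encodes cytosolic thioredoxin, the small protein that returns electrons to oxidised peroxiredoxins. Txn1 (chromosome 4, 57943373 to 57956411) had 881 FPKM (482 to 1279.7) in VD3 plus MM-401 cells and 392 FPKM (261 to 524) in VD3 cells, against 371 FPKM (248 to 495) in untreated cells. The counts showed the same order, at 51607 in VD3 plus MM-401 cells, 23125 in VD3 cells and 21926 in untreated cells. Txn1 was thus near its untreated level under VD3 alone (log2 difference 0.08) and more than 2-fold above both other pools in VD3 plus MM-401 cells, by 1.24 over untreated and 1.17 over VD3 cells. These differences were larger than those of 93.0% and 96.8% of all genes. The lower end of its VD3 plus MM-401 interval nevertheless lay within the intervals of both other pools, so Txn1 did not meet the rule in either comparison. By fold alone, 3 of the 10 genes (Sod1, Prdx2 and Txn1) were at least 2-fold higher with VD3 plus MM-401 than without treatment, where 13.4% of all genes were, and Txn1 was the 1 gene of the 10 at least 2-fold higher in VD3 plus MM-401 than in VD3 cells, where 4.67% were.

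**Figure D2:**
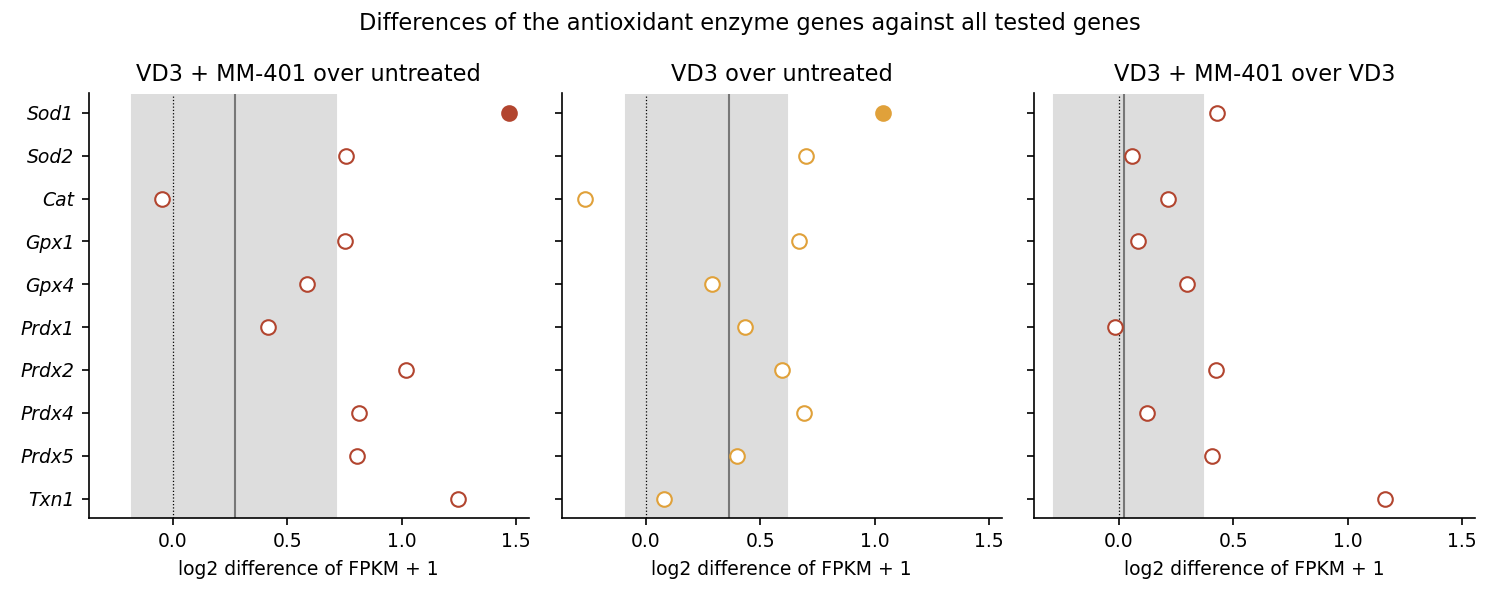
Log2 difference of each antioxidant gene in the 3 comparisons, with the median of all tested genes as a line and their middle 50% as a grey band; filled points met the rule. Sod1 is filled in both comparisons with untreated cells, and Txn1 lies farthest to the right between VD3 plus MM-401 and VD3 cells, at 1.17.

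Across the 10 genes, 9 lay above 0 against untreated cells under either treatment, with Cat the exception, where 66.1% of all genes did so for VD3 plus MM-401 and 71.7% for VD3. The median over the 10 was 0.78 for VD3 plus MM-401, beside 0.27 for all genes tested, and 0.51 for VD3, beside 0.36 for all genes. Set against the median gene, 9 of 10 lay above it under VD3 plus MM-401 and 7 of 10 under VD3, where Cat, Gpx4 and Txn1 lay below. Between VD3 plus MM-401 and VD3 cells the median over the 10 was 0.26, beside 0.02 for all genes. Prdx1 alone of the 10 lay below 0, at -0.01, where 52.1% of all genes lay above 0. With estimated counts scaled to the pool total (CPM) in place of FPKM, the Prdx1 difference was 0.24 and that of Txn1 in VD3 cells was -0.16.

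These genes have short transcripts, with a median of 1167 bases in the principal transcript, against 2909 bases over 8819 protein-coding genes, and in these pools short transcripts lay higher after treatment. The shortest of 10 equal groups by length had a median log2 difference of 0.98 in VD3 plus MM-401 and 0.57 in VD3 against untreated cells, and the longest had -0.25 and -0.14. After a smooth trend on transcript length and GC content was subtracted, the median over the 10 genes was 0.16 in VD3 plus MM-401 and 0.03 in VD3 cells. Sod1 then stood at 0.45 and 0.40, below 2-fold in both, while Sod2, with the longest principal transcript of the 10 at 5861 bases, stood at 1.42 and 1.70 and met the rule. With lengths taken as medians over a gene's coding transcripts instead, Sod2 stood at 0.59 and 0.24 and none of the 10 met the rule. Txn1 in VD3 plus MM-401 cells then differed from VD3 cells by 0.79 with the first choice of lengths and 0.90 with the second, and from untreated cells by 0.43 and 0.73. Prdx1 in VD3 against untreated cells stood at 0.88 with the first choice and 0.54 with the second, against 0.43 unadjusted. The lengths implied by the authors' counts and FPKM were 1043 bases for Prdx1, 4321 for Sod2 and 950 for Prdx4. Their principal transcripts have 2294, 5861 and 990 bases, so the adjusted values are approximate. Under both choices the sign turned for Gpx4, Prdx5 and Txn1 in VD3 against untreated cells. It also turned for Gpx4 in VD3 plus MM-401 against untreated cells, and for Gpx1 and Prdx4 in VD3 plus MM-401 against VD3 cells. With the first choice alone it turned as well for Gpx1 (-0.13), Prdx4 (-0.13) and Prdx5 (-0.005) in VD3 plus MM-401 against untreated cells. The same held for Gpx4 and Sod2 in VD3 plus MM-401 against VD3 cells. With that choice, 5 of the 10 lay above 0 in VD3 plus MM-401 and 6 in VD3 against untreated cells. Between VD3 plus MM-401 and VD3 cells 5 did, and the median over the 10 was 0.02.

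**Figure D3:**
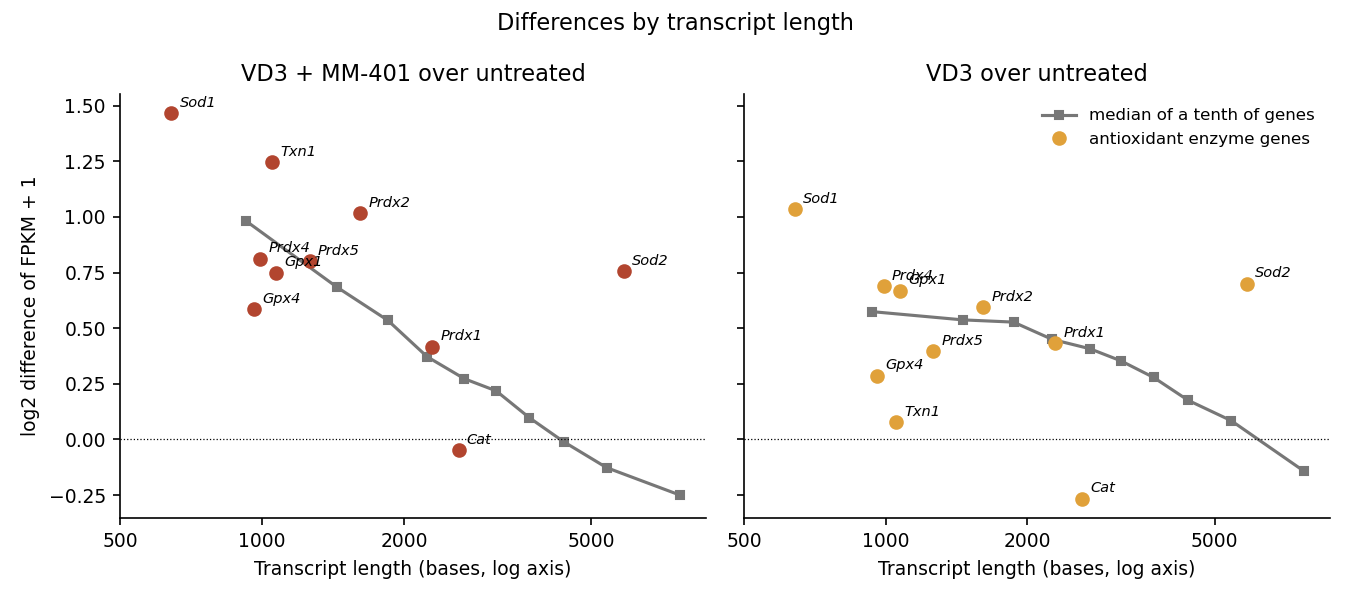
Median log2 difference from untreated cells in 10 equal groups of protein-coding genes ordered by transcript length, with the antioxidant genes as points at their own lengths on a log axis in bases. Short transcripts lie higher in both treated pools, and most of the 10 genes sit among the short ones.

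The longest coding sequence of each gene was searched for near-identical copies, with at least 90% identity over at least 80% of that sequence. Only copies with a value of their own were kept. For 4 of the 10 genes the search found 6 processed pseudogenes, and 4 of them held more than 1000 counts. The longest Gpx4 form has 762 bases, so a copy of its 594-base form could not reach 80%. Copies of the remaining genes can thus have been missed. The Sod1 copy Gm8566 (chromosome 6, 67205619 to 67206083, 97.8% identity) held 41.5% of the counts of the pair in VD3 plus MM-401 cells, 40.2% in VD3 cells and 47.1% in untreated cells. The Prdx1 copy Gm21399 (98.3% identity) held 27.9%, 34.0% and 35.3% of the counts of Prdx1 and its copies in the VD3 plus MM-401, VD3 and untreated pools. For Txn1, Txn-ps1 (95.8% identity) held 11.4%, 16.1% and 14.5% in the same order, and for Prdx2, Tdpx-ps1 held at most 9.79% in any pool. How the authors' counting divided reads between gene and copy is not given in the sources used here, so the values of Sod1, Prdx1, Prdx2 and Txn1 are uncertain to that extent. With the FPKM of gene and copy summed, Sod1 remained higher by 1.28 in VD3 plus MM-401 and 0.81 in VD3 cells. The summed intervals overlapped, however, and the rule was no longer met. The bounds of gene and copy were added for this, and the lower bounds stayed those of Sod1 alone. Intervals made in this way are wide, so their overlap cannot decide whether the pair differed. With the FPKM of Txn-ps1 added, Txn1 in VD3 plus MM-401 cells was higher by 1.03 than untreated and by 0.85 than VD3 cells. With counts added in place of FPKM, unscaled for the pool total, these differences were 1.18 and 1.08. Txn-ps1 is short and weighs more in FPKM, at 852 FPKM from 6642 counts in VD3 plus MM-401 cells.

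**Figure D4:**
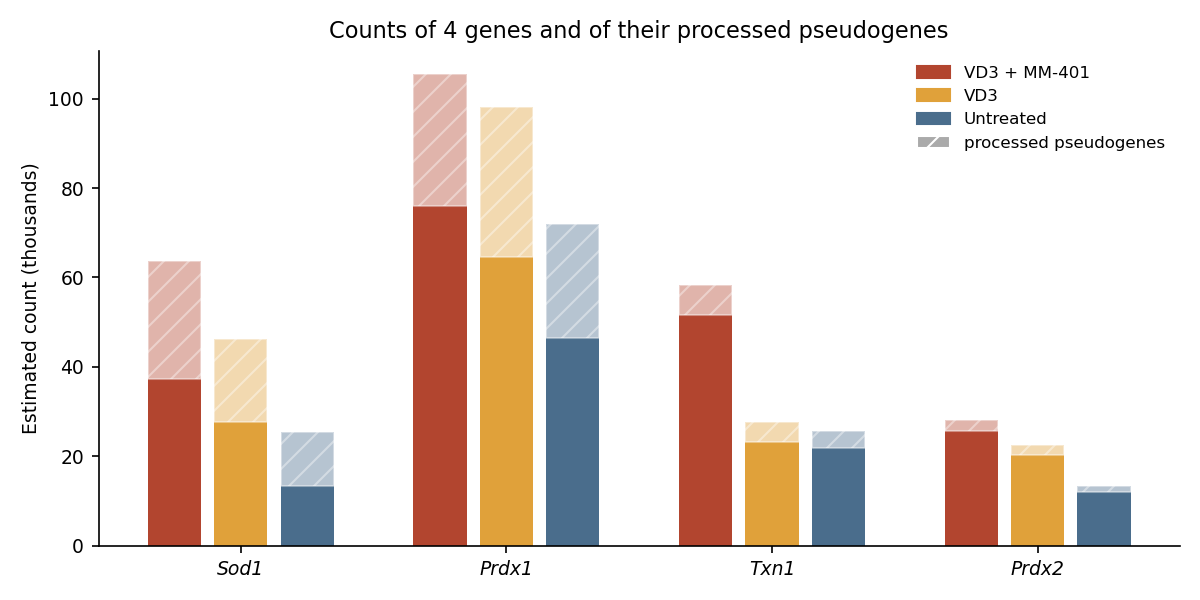
Estimated counts of Sod1, Prdx1, Prdx2 and Txn1 and of their near-identical processed pseudogenes (hatched) in VD3 plus MM-401, VD3 and untreated pools, as stacked bars on an axis from 0. The pseudogene share is largest for Sod1, at 41.5%, 40.2% and 47.1% of the pair.

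All 10 genes matched the RefSeq promoter table (GRCm38.p6, 250 bases before to 50 bases after each start), with 13 promoters. The core of the antioxidant response element, searched as TGACNNNGC on both strands, was found in 2 of the 13 promoters, those of Sod1 and Prdx1, and in 12.4% of all 32851 promoters of the same length. The vitamin D response element, searched on both strands as 2 direct repeats of GGTCA or of GTTCA with 3 bases between, was found in none of the 13, and in 0.292% of all promoters; such elements often lie farther away than this window. Both promoters with the core are printed to show where it lies. The matches differ in their variable bases, and whether they bear on the levels was not tested. The matches lie on the opposite strand and are in capitals, starting 56 bases before the start of Sod1 (chr16:90220512-90220811, plus strand) and 133 bases before that of Prdx1 (chr4:116685349-116685648, plus strand).
Sod1: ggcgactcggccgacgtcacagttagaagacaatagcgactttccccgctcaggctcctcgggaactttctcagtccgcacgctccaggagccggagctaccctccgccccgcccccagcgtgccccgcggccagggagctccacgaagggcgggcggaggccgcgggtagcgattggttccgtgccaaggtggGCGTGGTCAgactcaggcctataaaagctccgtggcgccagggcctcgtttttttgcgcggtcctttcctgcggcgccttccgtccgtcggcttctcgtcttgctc
Prdx1: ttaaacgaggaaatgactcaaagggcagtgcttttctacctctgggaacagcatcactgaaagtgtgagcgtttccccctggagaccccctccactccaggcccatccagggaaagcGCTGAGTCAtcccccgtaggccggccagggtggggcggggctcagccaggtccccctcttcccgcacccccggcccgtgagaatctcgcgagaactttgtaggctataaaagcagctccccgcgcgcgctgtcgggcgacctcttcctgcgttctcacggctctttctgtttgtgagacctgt

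Around these enzymes, 82 genes in 7 lists of the same pathways were examined, and 80 had a value of their own. In VD3 plus MM-401 against untreated cells, 5 of 73 tested were called higher and 1 lower; in VD3 against untreated cells none of 74 was called higher and 2 lower; between VD3 plus MM-401 and VD3 cells none of 74 was called. Over all genes, 4.26% were higher and 2.68% lower in the first of these comparisons, 0.926% and 4.22% in the second, and 1.37% were called in the third. The genes that rose in VD3 plus MM-401 cells were Glrx5, Glrx3, Txndc17, Selenow and Atox1. Glrx5, a mitochondrial glutaredoxin of iron-sulfur cluster assembly, had 73.4 FPKM in VD3 plus MM-401 cells and 45.3 in VD3 cells, against 21.2 in untreated cells. Glrx3, a cytosolic glutaredoxin, had 103 FPKM in VD3 plus MM-401 cells and 64.3 in VD3 cells, against 38.2 in untreated cells. For both, the VD3 pool lay between the other pools; the log2 differences were 1.75 and 1.41 in VD3 plus MM-401 against untreated cells, and 0.69 and 0.67 between VD3 plus MM-401 and VD3 cells, which did not meet the rule. Atox1, the copper chaperone of the secretory pathway, had 841 FPKM in VD3 plus MM-401 cells and 517 in VD3 cells, against 343 in untreated cells (1.29 in VD3 plus MM-401 cells). Txndc17, a small thioredoxin-like protein, and Selenow, a small selenoprotein, differed by 1.12 and 1.28 in VD3 plus MM-401 cells. Relative to the median gene, 2 genes in place of 6 were called in VD3 plus MM-401 against untreated cells, and after the length and GC trend was subtracted 1 was, or 0 with median lengths.

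Selenot, a selenoprotein of the endoplasmic reticulum, fell in both treated pools: it had 24.0 FPKM in VD3 plus MM-401 cells and 15.6 in VD3 cells, against 51.8 in untreated cells, at log2 differences of -1.08 and -1.67. Bach1, a repressor at antioxidant response elements, fell in VD3 cells to 4.68 FPKM (2.94 to 6.42), against 10.4 FPKM (6.73 to 14.1) in untreated cells, and was at 8.4 FPKM (0 to 18.1) in VD3 plus MM-401 cells. By counts Bach1 was low in both treated pools, at 1986 in VD3 plus MM-401 cells and 1757 in VD3 cells, against 3808 in untreated cells, so that FPKM and counts differ on the VD3 plus MM-401 pool. Selenot and Bach1 thus both had their lowest value under VD3 alone, at -0.85 and -0.92 after the length and GC trend was subtracted, where neither met the rule. NRF2 itself (Nfe2l2) had 82.1 FPKM in VD3 plus MM-401 cells and 78.2 in VD3 cells, against 72.6 in untreated cells. Of the 12 tested genes in the list of NRF2 regulators and targets, Bach1 alone was called in any comparison. Against untreated cells, 6 of the 12 lay above the median gene in VD3 plus MM-401 cells and 5 in VD3 cells. Fth1, from the same list, is given below, and NRF2 activity was not tested. The textbook NRF2 targets Hmox1, a haem oxygenase, and Nqo1, a quinone reductase, were not called. Hmox1 had 185 FPKM in VD3 plus MM-401 cells and 209 in VD3 cells, against 191 in untreated cells. Nqo1 had 105 FPKM in VD3 plus MM-401 cells and 135 in VD3 cells, against 87.7 in untreated cells.

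Among the enzymes closest to the 10, Prdx3, the mitochondrial peroxiredoxin, had 107 FPKM in VD3 plus MM-401 cells and 100.5 in VD3 cells, against 62.2 in untreated cells. Prdx6, which can draw on glutathione, had 595 FPKM in VD3 plus MM-401 cells and 619 in VD3 cells, against 365 in untreated cells. Both had near-equal treated pools above the untreated one, with overlapping intervals. In the thioredoxin system, Txnrd1, which reduces Txn1 with NADPH, had 279.6 FPKM in VD3 plus MM-401 cells and 382 in VD3 cells, against 342 in untreated cells. Txnip, the inhibitor that binds thioredoxin, had 447 FPKM in VD3 plus MM-401 cells and 515 in VD3 cells, against 452 in untreated cells. Neither showed the order of Txn1, whose highest pool was VD3 plus MM-401. The mitochondrial Txn2 had 945 FPKM (0 to 2065) in VD3 plus MM-401 cells and 447 (106 to 789) in VD3 cells, against 268 (66.6 to 469.6) in untreated cells, but its counts were 17882, 17520 and 10929 in the same order, so that FPKM and counts differ on whether the treated pools were alike.

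The genes named here for glutathione synthesis, NADPH supply, iron storage and detoxification did not meet the rule in any comparison. Gclm and Gclc encode the subunits of the enzyme that starts glutathione synthesis. Gclm had 167 FPKM in VD3 plus MM-401 cells and 255 in VD3 cells, against 207 in untreated cells, and Gclc had 33.3, 43.0 and 49.2 FPKM in the same pools. The pentose phosphate enzymes Tkt and Taldo1 differed from untreated cells by -0.19 and 0.50 on the log2 scale in VD3 plus MM-401 cells and by 0.23 and 0.55 in VD3 cells. Fth1, the heavy chain of ferritin, differed by 1.15 in VD3 plus MM-401 cells and 0.52 in VD3 cells, with overlapping intervals. Its partner, the light chain Ftl1, differed by 0.41 and 0.11, at a locus that also names a small RNA. The glutathione transferase Gsta4 differed by 1.06 and 0.68, and the oxidative stress protein Park7 by 0.90 and 0.74, also with overlapping intervals. Among other selenoproteins, Selenoh differed by 1.28 in VD3 plus MM-401 cells with an interval that reaches 0, and Selenof by 0.47.

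**Figure D5:**
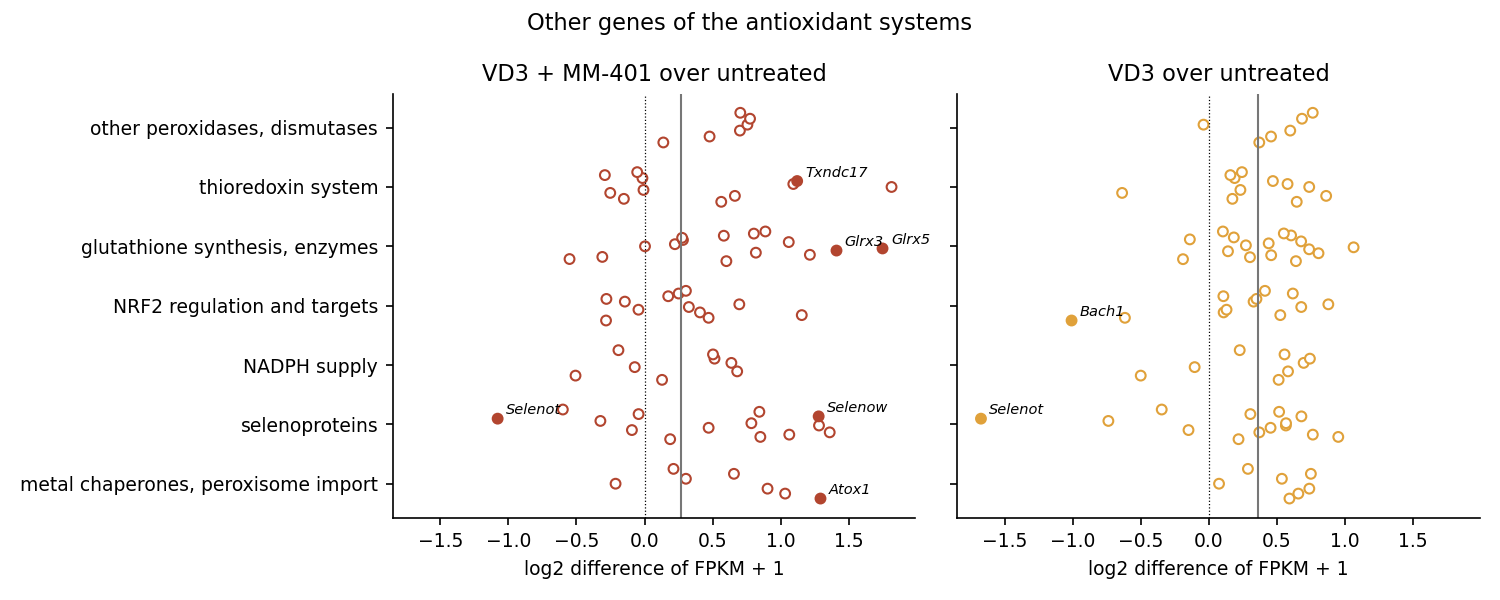
Log2 differences from untreated cells of the tested genes in the 7 supporting lists, 1 list a line, in VD3 plus MM-401 and in VD3 cells, with filled points for genes that met the rule and a grey line at the median of all genes. Most points lie to the right of 0 in both panels, and Selenot lies farthest left in VD3 cells, at -1.67.

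The genes whose pair of differences from untreated cells lay nearest the median of the 10 (0.78 in VD3 plus MM-401 and 0.51 in VD3 cells), over 3 pools and among 2253 protein-coding genes of at least 50 FPKM in every pool, were Ints11, Jund, Tmem11, Ilkap and Epcam. Their distances were 0.0011 to 0.039 in log2 units, and 60 genes lay within 0.1. With 3 pools, such likeness is a description of levels that many genes share.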

How the data were processed

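RNA was extracted on columns with DNase treatment and prepared as Illumina TruSeq libraries (per the labels' protocols). TopHat2 2.1.1, SAMtools 1.5, Cufflinks 2.2.1 and the build mm10 are named per the submitters' processing notes, without settings or the scaling between pools. The authors deposited, per gene locus, FPKM values with the bounds of an interval on the same scale, whose level is not stated, and estimated counts with their variance. Each group has 1 combined column, so counts were not tested and depth per library is unknown. Whether the interval includes spread between the 2 libraries of a pool is not stated. From these values, log2((FPKM + 1)/(FPKM + 1)) was computed with Python 3.11.15 and pandas 2.3.3 over all genes of at least 5 FPKM in the higher pool, with loci of the same name summed; a call needed a size of at least 1 and intervals apart. The code was run on simulated data with changes larger than those of Sod1. Unchanged genes had the same interval in both simulated pools, so that run gives no rate of false calls. Alternatives were a pseudocount of 0.1, no filter, centring on the median gene, CPM of the estimated counts with 2 standard deviations of the authors' count variance, fold alone, the highest locus of a name, a running median of 300 neighbours on length and GC content, and, chosen after seeing the data, median transcript lengths and values summed with pseudogenes found by BLAST 2.17.0. For the sums, the interval bounds of gene and pseudogene were added. Promoters and coding sequence came from RefSeq (GRCm38.p6) and GENCODE vM21 (GRCm38). Named were the 10 genes, from each list the 2 with the highest mean FPKM and every called gene (at most 6), and the 5 nearest genes; Nfe2l2, Hmox1, Nqo1, Txnrd1 and Gclc were added from the lists after their values were seen. The genes and lists were chosen with earlier results of these data known. Mafg and Pgls had no value of their own. Protein sequences were not analysed here.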

Additional observations from a re-analysis of the deposited data

How the results depend on the processing

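Over 33 log2 differences (each of the 10 genes and their median in 3 comparisons), 264 alternative values were computed: 232 kept their side of the rule and, where no call was made, moved by less than the upper arm of the authors' interval, which is wide (Gpx4 in VD3 plus MM-401 against untreated cells went as far as -0.31 after the length and GC adjustment, in place of 0.59), 22 moved by more, 8 (all Sod1) no longer met the rule, 2 (Sod2) newly met it, and 21 had the other sign, none of them a called value. In VD3 plus MM-401 against untreated cells, the number of the 10 genes called was 3 by fold alone, and 0 with median lengths or with copies summed, in place of 1; over all genes it was 2150 by fold alone, 126 after the length and GC adjustment and 171 with median lengths, in place of 761; over the supporting lists it was 2 when centred, 15 by fold alone, 1 after adjustment and 0 with median lengths, in place of 6. In VD3 against untreated cells, 0 of the 10 were called when centred, by CPM, with median lengths or with copies summed, in place of 1; over all genes it was 1253 by CPM, 1335 by fold alone, 132 after adjustment and 173 with median lengths, in place of 561; over the lists it was 5 by CPM and 0 after either adjustment, in place of 2. In VD3 plus MM-401 against VD3 cells, fold alone gave 1 of the 10, 716 of all genes and 2 of the lists, in place of 0, 147 and 0; CPM gave 76 genes and both adjustments 25. The split of calls over all genes was 467 higher and 294 lower for VD3 plus MM-401 against untreated cells, but 189 and 405 when centred and 190 and 772 by CPM; for VD3 against untreated cells it was 101 and 460, but 46 and 718 when centred and 22 and 1231 by CPM; for VD3 plus MM-401 against VD3 cells it was 89 and 58, but 69 and 7 by CPM. The part of length or of copies in the differences was tested only as far as these settings go; for the other changes the cause was not tested. No paired analysis was possible because the tables hold 1 combined column per group, and for the same reason no library could be left out. The width of the authors' intervals limits what could be called: of the 10 genes, Prdx2 and Txn1 passed 2-fold without meeting the rule.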
